A study of Mus musculus with 12 samples.

Results

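Tumor necrosis factor (TNF), its pair of receptors and the genes that NF-κB switches on to restrain or extend its own activity were followed in the mouse colon. The 10 genes were taken by symbol from the 54532 genes in the files: the ligand Tnf, the receptors Tnfrsf1a (TNFR1) and Tnfrsf1b (TNFR2), the inhibitors Nfkbia (IκBα) and Tnfaip3 (A20), the nuclear co-regulator Nfkbiz (IκBζ), the subunits Nfkb1 (p105/p50), Nfkb2 (p100/p52) and Relb, and the TNF-induced gene Tnfaip2. All 10 were found, and all 10 passed the filter on low counts. As background, TNF binding to TNFR1 frees NF-κB dimers from the IκB proteins, and the dimers then enter the nucleus. NF-κB drives transcription of its own brakes, IκBα and A20, and of the precursor subunits p105 and p100, so the RNA of these genes is widely read as a record of recent signalling. In the inflamed gut TNF is made mainly by macrophages, T cells and granulocytes, and antibodies against it are used to treat inflammatory bowel disease.

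Colon RNA of male C57BL/6 mice, 6 weeks old on arrival, was sequenced in 4 groups of 3 libraries. DSS (dextran sulfate sodium, a polymer that injures the colon epithelium and gives a model of ulcerative colitis) was added to the water of all groups but Con, at 3% (w/v), over 5 days. UA (ursolic acid, a triterpenoid of fruit peels and herbs) was given by gavage at 200 mg/kg. In the UA+DSS group it began 1 day before DSS (the preventive schedule, 7 days in the methods and 9 in the discussion), whereas DSS+UA mice received it from 3 days after DSS (the later schedule, 4 and 5 days). The methods give vehicle by gavage to the Con and DSS mice, whereas the labels call Con untreated. No gene was deleted or transgenic in any group. The labels do not say that the libraries of a group came from separate animals, and the methods name 3 colonic tissues a group. The p-values thus measure the spread between libraries within groups, estimated over all groups together. Libraries carry the name of their group and a replicate number, such as DSS 2.

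Levels are CPM, read counts brought to a fixed library size after TMM scaling, and total counts ran from 15566216 to 19498383 a library. Groups were compared by the quasi-likelihood test of edgeR, with all 12 libraries in 1 fit. A gene is said to have risen or fallen where its Benjamini-Hochberg adjusted p over the 17658 tested genes was under 0.05. Fold changes are on the log2 scale with the standard error (SE). A range given over alternatives is that of the adjusted p under other scaling, filters and tests and on leaving out each library. An exact test of 3 libraries against 3 cannot go below p = 0.1, so none was run for single genes.

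DSS 2 stood apart from the other DSS libraries, so results are given with and without it. The summed level of 10 neutrophil markers was 19539 CPM in DSS 2 against 716 in DSS 1 and 915 in DSS 3. In Con that sum was 2.77 to 4.14 CPM, with 5 of the 10 markers at 0 counts in 1 or more Con libraries (S100a8, S100a9, Cxcr2, Mmp8 and Retnlg). The sum was 20.8 to 79.9 in UA+DSS, and 680, 159 and 751 in the DSS+UA libraries 1, 2 and 3. All 10 neutrophil markers rose in DSS against Con, where 13.9% of all tested genes rose. All 10 fell in UA+DSS against DSS (10.5% of all tested genes did), and 2 of 10 fell in DSS+UA against DSS (5% did). Counts of markers that rose or fell, here and below, are from the fit with DSS 2 only. DSS 3 carried 14557 CPM of 7 pancreatic acinar markers, against at most 554 CPM in any other library. The 10 colon epithelium markers were detected in every library, with sums of 6299 to 18372 CPM. In bulk tissue, fewer cells of a type and less RNA per cell cannot be told apart.

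All 10 genes had their highest level of the 12 libraries in DSS 2, where 16% of all tested genes had theirs. By group mean, 8 of the 10 genes ran DSS, DSS+UA, UA+DSS, Con from highest to lowest. The exceptions were Nfkb1 and Relb, in which UA+DSS lay above DSS+UA. By group median only 6 kept that order, and the median of Tnf was higher in DSS+UA (11.5 CPM) than in DSS (6.54 CPM). DSS 2 was at least 2 times the mean of DSS 1 and DSS 3 in 7 of the 10 genes (10.4% of all tested genes were). It exceeded that mean by 42.8-fold for Tnf, 10.4-fold for Tnfaip3 and 10.2-fold for Nfkbiz, but by only 1.65-fold for Tnfrsf1a and 1.55-fold for Nfkb1.

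**Figure D1:**
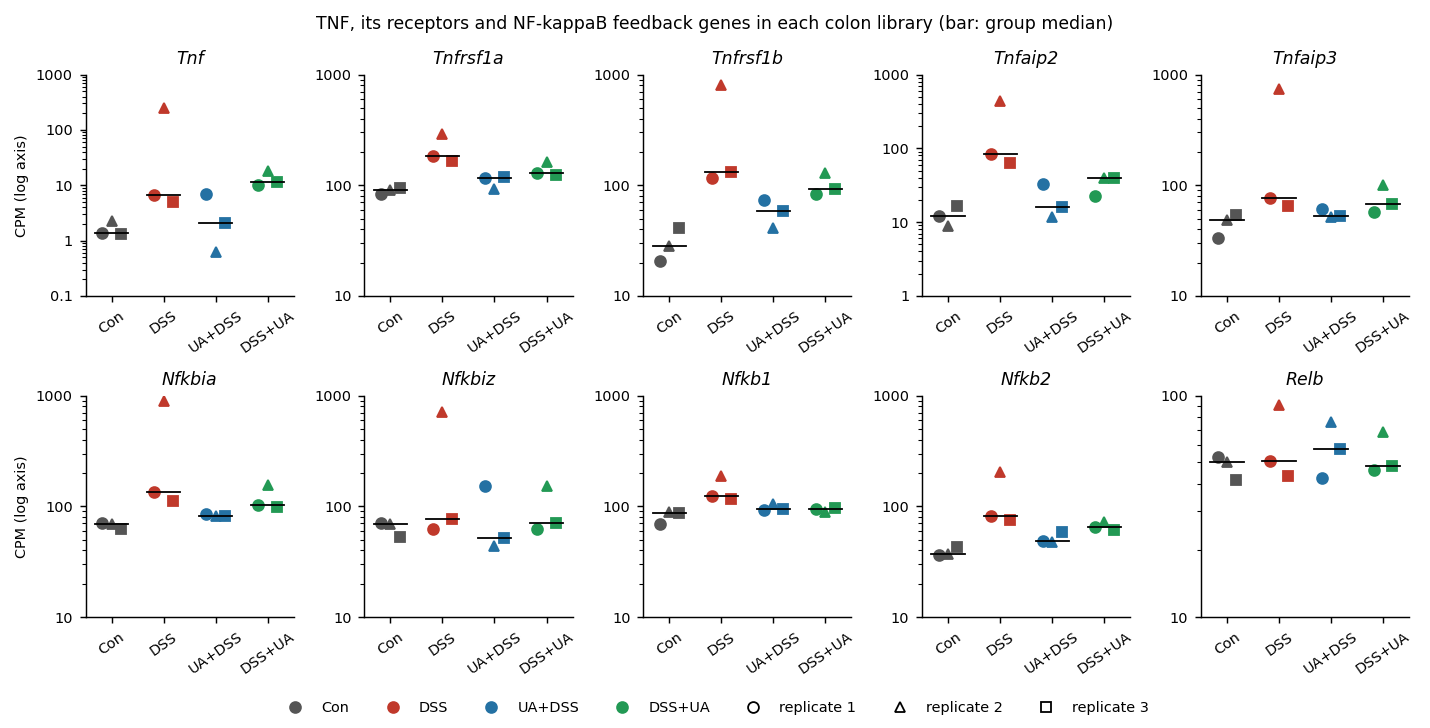
CPM (log axis) of each of the 10 genes in the 12 libraries, coloured by group, with the symbol giving the replicate and the bar the group median. The DSS 2 triangle is the highest point of every panel, and for Tnf it lies at 249 CPM with the other DSS libraries at 6.54 and 5.07.

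In DSS against Con 8 of the 10 genes rose, none fell, and Nfkbiz and Relb did not pass the test. Of all tested genes 13.9% rose in this comparison. The median log2 fold change of the 10 genes was 2.32, against -0.03 over all tested genes. The 3 DSS libraries lay above the 3 Con libraries for 8 genes, which 21.2% of all tested genes also did. Without DSS 2, 6 of the 10 rose (10.5% of all tested genes did), with Tnf and Tnfaip3 no longer passing, and the median of the 10 genes dropped to 0.92. In a fit of the Con and DSS libraries alone 3 genes rose, Tnfrsf1a, Tnfrsf1b and Tnfaip2. Without any 1 Con library 5 rose, Tnf, Tnfaip3 and Nfkbia being lost. The share of all tested genes that rose in these fits is not given, so these counts cannot be set against it.

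In UA+DSS against DSS 6 of the 10 genes fell and none rose: Tnf, both receptors, Tnfaip2, Nfkbia and Nfkb2. Of all tested genes 10.5% fell in this comparison. The median log2 fold change of the 10 genes was -1.98, against -0.02 over all tested genes. The UA+DSS libraries lay below the DSS libraries for 7 genes (21.7% of all tested genes did). Without DSS 2, 4 fell (6.12% of all tested genes did): Tnfrsf1a, Tnfrsf1b, Tnfaip2 and Nfkb2. Without UA+DSS 1, 2 fell (Tnfrsf1a and Tnfaip2), and without UA+DSS 3, 1 fell (Tnfrsf1a). The share of all tested genes that fell is not given for these fits or for those named next. No gene of the 10 passed without UA+DSS 2, in a fit of these 2 groups alone, or with a score of position along the colon in the model. That score, built from Hox genes by an earlier analysis of these data, was -5.70 to -4.16 in UA+DSS and 0.37 to 3.10 in DSS, so position and UA cannot be told apart in this comparison. The score was 5.53, -3.03 and -1.83 in Con 1 to 3 and 4.11 to 5.06 in DSS+UA.

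In DSS+UA against DSS none of the 10 genes passed edgeR's test, and 7 of 10 had an unadjusted p under 0.05 (2 of 10 without DSS 2). Of all tested genes 7.54% were called. DESeq2 called 3 and limma-voom none. The shares of all tested genes under DESeq2, limma-voom and the unadjusted p are not given. In every comparison DESeq2 gave neither p nor adjusted p for Tnf, Tnfrsf1b, Tnfaip3, Nfkbia and Nfkbiz, so it could not call them. Its default settings withhold both where a single count is outlying for its gene. All 10 fitted fold changes were below 0, with a median of -1.63 against 0.02 over all tested genes. Without DSS 2 that median was -0.13, and 4 of the 10 fold changes were above 0. The DSS+UA libraries lay below the DSS libraries for 4 genes (16.4% of all tested genes did): Tnfrsf1a, Tnfaip2, Nfkb1 and Nfkb2. The colon position score was 4.11 to 5.06 in DSS+UA and 0.37 to 3.10 in DSS, so position and UA cannot be told apart here either.

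**Figure D2:**
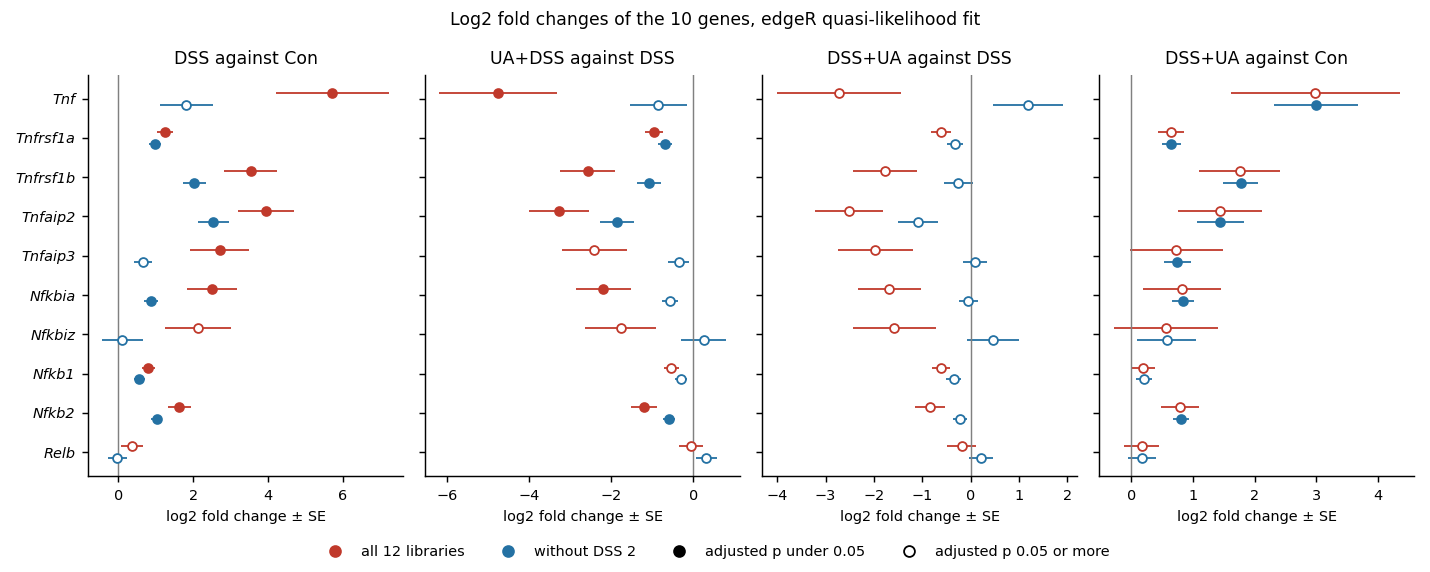
Log2 fold change ± SE of each gene in 4 comparisons, in the fit of all 12 libraries and in the fit without DSS 2, with filled points where the adjusted p was under 0.05. Without DSS 2 the fold change of Tnf in DSS against Con moved from 5.71 to 1.81, while that of Tnfrsf1a moved from 1.25 to 0.97.

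Tnf, on chromosome 17 (GRCm38 chr17:35199381-35202007, minus strand), encodes the ligand and was the lowest of the 10 genes in Con, at 1.01 ± 0.33 CPM per kb of exon (SD, n = 3). Its level was 1.34, 2.27 and 1.34 CPM in Con 1 to 3. In DSS it was 6.54, 249 and 5.07 CPM, so that DSS 2 held 95.5% of the Tnf reads of the group. All 3 DSS libraries were above all Con libraries, and DSS 1 and DSS 3 averaged 3.52 times the Con mean. The fitted log2 fold change was 5.71 ± 1.51 (edgeR adjusted p = 0.0208, 0.0101 to 0.169 over alternatives). It was 1.81 ± 0.71 without DSS 2 (adjusted p = 0.0956), and the call was also lost on leaving out any 1 Con library.

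UA+DSS held 6.99, 0.625 and 2.07 CPM of Tnf, the first of these above both DSS 1 and DSS 3, so UA+DSS and DSS overlapped. Tnf fell by 4.75 ± 1.44 on the log2 scale in UA+DSS against DSS (edgeR adjusted p = 0.0435, 0.0202 to 0.456 over alternatives). That call was lost on leaving out any of 10 of the 12 libraries, DSS 2 among them (-0.86 ± 0.70, adjusted p = 0.456). DSS+UA held 10.2, 17.8 and 11.5 CPM, all above every Con library and above DSS 1 and DSS 3. The log2 fold change of DSS+UA against DSS was -2.72 ± 1.29 (adjusted p = 0.186) with DSS 2 and 1.19 ± 0.72 (adjusted p = 0.367) without it, the range over alternatives being 0.103 to 0.748. The direction of this comparison thus turned on 1 library.

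The receptors differed in level and in the size of their change. TNFR1, the receptor that most cells carry and that holds the death domain, had 34.4 ± 2.38 CPM per kb of exon in Con (SD, n = 3), and TNFR2, the receptor of leukocytes and endothelium that lacks it, had 7.89 ± 2.71. Tnfrsf1a was at 82.6, 89.7 and 94.9 CPM in Con and at 185, 288 and 165 CPM in DSS. It was at 116, 93.0 and 118 CPM in UA+DSS and at 130, 161 and 124 CPM in DSS+UA. DSS lay above every other group with no overlap, and UA+DSS overlapped Con in 1 library.

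Tnfrsf1a rose by a log2 fold change of 1.25 ± 0.21 in DSS against Con (edgeR adjusted p = 0.00359), and passed under all 22 alternatives. It fell by 0.97 ± 0.21 in UA+DSS against DSS (adjusted p = 0.0156, 0.000605 to 0.140 over alternatives), and without DSS 2 by 0.69 ± 0.17 (adjusted p = 0.0320). That call was lost without UA+DSS 2 (adjusted p = 0.0783). The log2 fold change in DSS+UA against DSS was -0.62 ± 0.21 (adjusted p = 0.0850).

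Tnfrsf1b was at 20.7, 28.5 and 41.2 CPM in Con and at 115, 797 and 131 CPM in DSS. It was at 74.0, 41.4 and 59.1 CPM in UA+DSS and at 84.0, 129 and 92.8 CPM in DSS+UA. Every UA+DSS library lay above the highest Con library, although UA+DSS 2 did so by little, and DSS+UA 2 lay inside the DSS range. The gene rose by a log2 fold change of 3.53 ± 0.70 in DSS against Con (edgeR adjusted p = 0.00690), and of 2.03 ± 0.30 without DSS 2 (adjusted p = 0.00288, 0.00288 to 0.0467 over the 21 alternatives, all of which it passed). It fell by 2.58 ± 0.68 in UA+DSS against DSS (adjusted p = 0.0278, 0.0139 to 0.160 over alternatives), and by 1.08 ± 0.30 without DSS 2 (adjusted p = 0.0457). Leaving out any 1 UA+DSS library ended this call, at adjusted p of 0.0605 to 0.116. Its log2 fold change in DSS+UA against DSS was -1.77 ± 0.66 (adjusted p = 0.106) and -0.26 ± 0.30 without DSS 2 (adjusted p = 0.657).

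The ratio of TNFR2 to TNFR1 RNA within a library, per exon base, was 0.170 to 0.295 in Con. In DSS it was 0.424, 1.88 and 0.538, so TNFR2 was the more abundant receptor RNA only in DSS 2. It was 0.302 to 0.434 in UA+DSS and 0.438 to 0.541 in DSS+UA. All 9 libraries given DSS lay above the 3 Con libraries. These ratios are a description, with no test. The summed level of 12 monocyte and macrophage markers was 273 to 612 CPM in Con, 1616 to 4016 in DSS, 472 to 992 in UA+DSS and 627 to 1739 in DSS+UA. Of these 12 markers 10 rose in DSS against Con (13.9% of all tested genes did) and 7 fell in UA+DSS against DSS (10.5% did). None was at 0. Their part in the receptor result was not tested.

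**Figure D3:**
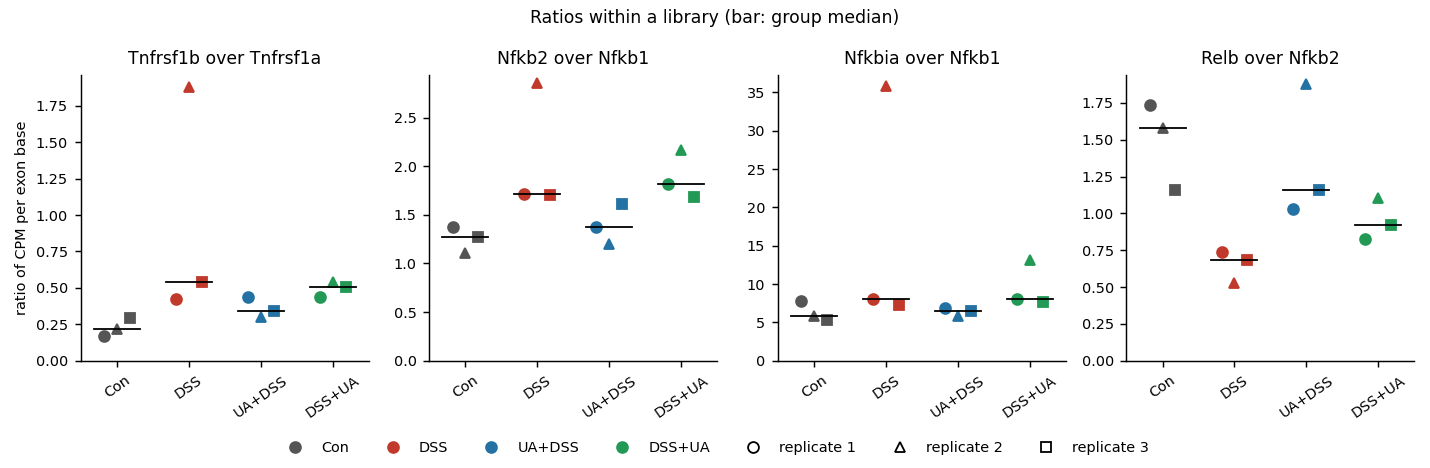
Ratios of 2 genes within each library, each per base of exon, by group, with the symbol giving the replicate and the bar the group median. The ratio of Tnfrsf1b to Tnfrsf1a reached 1.88 in DSS 2, and that of Relb to Nfkb2 was 0.527 to 0.736 in DSS against 1.16 to 1.74 in Con.

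Nfkbia encodes IκBα, which holds NF-κB in the cytoplasm, and its RNA rose in DSS. The gene had the highest level per length of the 10 in Con, at 41.7 ± 2.89 CPM per kb of exon (SD, n = 3). Its level was 71.0, 68.6 and 62.0 CPM in Con and 135, 891 and 112 CPM in DSS. In UA+DSS it was 84.9, 81.8 and 82.3 CPM, the narrowest spread of any group for this gene (SD 1.65 CPM, n = 3). In DSS+UA it was 102, 154 and 98.4 CPM. Every group given DSS lay above Con, UA+DSS lay below DSS and below DSS+UA, and DSS+UA overlapped DSS.

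The log2 fold change of Nfkbia in DSS against Con was 2.50 ± 0.67 (edgeR adjusted p = 0.0215, 0.00688 to 0.0919 over alternatives), and 0.87 ± 0.20 without DSS 2 (adjusted p = 0.0137). Leaving out any 1 Con library gave adjusted p of 0.0567 to 0.0677. Nfkbia fell by 2.19 ± 0.66 in UA+DSS against DSS (adjusted p = 0.0429, 0.0137 to 0.253 over alternatives), and this call was lost on leaving out any of 9 of the 12 libraries. Without DSS 2 the value was -0.57 ± 0.20 (adjusted p = 0.0860). For DSS+UA against DSS it was -1.68 ± 0.65 (adjusted p = 0.116), and -0.04 ± 0.20 without DSS 2 (adjusted p = 0.923).

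Tnfaip3 encodes A20, the ubiquitin-editing enzyme that ends TNFR1 signalling. It was at 33.5, 48.4 and 54.1 CPM in Con and at 77.3, 742 and 64.9 CPM in DSS, with no overlap. In UA+DSS it was at 61.1, 52.1 and 53.1 CPM and in DSS+UA at 57.3, 99.8 and 68.3 CPM. The 3 UA+DSS libraries lay below all DSS libraries and within or just above the Con range. Tnfaip3 rose by 2.70 ± 0.80 on the log2 scale in DSS against Con (edgeR adjusted p = 0.0310, 0.0114 to 0.112 over alternatives), and the value was 0.65 ± 0.25 without DSS 2 (adjusted p = 0.0859). Its call was lost as well without any 1 Con library, at adjusted p of 0.0689 to 0.0916.

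The log2 fold change of Tnfaip3 in UA+DSS against DSS was -2.41 ± 0.79, just short of the threshold (edgeR adjusted p = 0.0558, 0.0200 to 0.365 over alternatives). It passed without DSS 1 (adjusted p = 0.0389) and without DSS 3 (adjusted p = 0.0200), and without DSS 2 it was -0.36 ± 0.25 (adjusted p = 0.365). For DSS+UA against DSS it was -1.97 ± 0.77 (adjusted p = 0.121), and 0.09 ± 0.25 without DSS 2.

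Nfkbiz encodes the nuclear IκBζ, a co-activator of secondary NF-κB targets. Its level was 70.6, 69.3 and 53.4 CPM in Con and 62.0, 710 and 77.0 CPM in DSS. In UA+DSS it was 153, 43.6 and 52.3 CPM, and in DSS+UA 62.0, 152 and 70.7 CPM. Apart from DSS 2, UA+DSS 1 and DSS+UA 2, all libraries lay between 43.6 and 77.0 CPM, and all groups overlapped. Its log2 fold change was 2.13 ± 0.88 in DSS against Con (edgeR adjusted p = 0.0950, 0.0548 to 0.904 over alternatives) and 0.11 ± 0.54 without DSS 2 (adjusted p = 0.904). For UA+DSS against DSS it was -1.77 ± 0.87 (adjusted p = 0.176) and 0.25 ± 0.54 without DSS 2. The gene passed in none of the 6 comparisons.

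Promoters were searched for the sequence that NF-κB dimers bind, and those printed below were chosen because they hold matches to it. The 250 bases before the start were taken from RefSeq (GRCm38.p6), 5′ to 3′ on the gene's strand, for 7 of the 10 genes. Nfkbiz, Nfkb1 and Relb had no entry. Both strands were searched for the kappa-B consensus GGGRNNYYCC (R is A or G, Y is C or T, N is any base). It occurs in 7.25% of 32851 promoters of this length. Of 27025 genes, 8.23% have it in any of their promoters. Capitals mark consensus matches, which are a description and not evidence of a bound site. The Nfkbia promoter lies at chr12:55492648-55492897 (minus strand), the second annotated Tnfaip3 promoter at chr10:19015411-19015660 (minus strand) and the first Nfkb2 promoter at chr19:46304487-46304736 (plus strand).
Nfkbia: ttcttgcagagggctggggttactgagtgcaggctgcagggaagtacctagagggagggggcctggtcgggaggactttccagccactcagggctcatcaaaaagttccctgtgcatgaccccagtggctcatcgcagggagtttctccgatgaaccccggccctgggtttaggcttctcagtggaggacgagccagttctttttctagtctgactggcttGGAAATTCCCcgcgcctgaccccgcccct
Tnfaip3: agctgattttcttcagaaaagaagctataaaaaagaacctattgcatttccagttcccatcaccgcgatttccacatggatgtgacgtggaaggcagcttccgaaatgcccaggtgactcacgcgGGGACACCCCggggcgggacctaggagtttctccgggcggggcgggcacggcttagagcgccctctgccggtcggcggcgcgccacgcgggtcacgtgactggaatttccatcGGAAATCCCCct
Nfkb2: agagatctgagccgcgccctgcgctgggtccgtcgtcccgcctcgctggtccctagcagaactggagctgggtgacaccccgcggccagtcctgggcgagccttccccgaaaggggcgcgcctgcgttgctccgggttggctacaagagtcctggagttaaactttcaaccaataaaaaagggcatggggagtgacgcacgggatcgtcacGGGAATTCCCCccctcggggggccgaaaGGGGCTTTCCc
The match in Nfkbia begins 29 bases before the start. The Tnfaip3 promoter shown holds matches 125 and 12 bases before its start, and the window of the other annotated start (chr10:19011964-19012213) holds none. Nfkb2 holds overlapping matches on the 2 strands, 39 and 38 bases before the start, and another 11 bases before it. Its other annotated starts each have 1 match, 236 and 225 bases before them. Tnfaip2 had 1 match, 24 bases before its start. No match was found in these windows of Tnf, Tnfrsf1a or Tnfrsf1b.

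Both precursor subunits rose in DSS. Nfkb1, which gives p105 and its product p50, was at 68.8, 88.5 and 87.7 CPM in Con and at 125, 186 and 116 CPM in DSS. It was at 93.3, 105 and 95.4 CPM in UA+DSS and at 95.2, 88.4 and 96.1 CPM in DSS+UA. DSS lay above every other group, and both UA groups lay close to the upper Con libraries. Nfkb1 rose by a log2 fold change of 0.80 ± 0.19 in DSS against Con (edgeR adjusted p = 0.0110), and by 0.56 ± 0.15 without DSS 2 (adjusted p = 0.0247, 0.000930 to 0.0773 over alternatives).

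The log2 fold change of Nfkb1 in UA+DSS against DSS was -0.54 ± 0.18 (edgeR adjusted p = 0.0628, 0.0322 to 0.209 over alternatives), and it passed without Con 1 (adjusted p = 0.0489) and without DSS 3 (adjusted p = 0.0322). For DSS+UA against DSS it was -0.61 ± 0.18 (adjusted p = 0.0620, 0.0250 to 0.202 over alternatives), and it passed without DSS 3 (adjusted p = 0.0443).

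Nfkb2 gives p100, the precursor and inhibitor of the noncanonical arm, and its product p52. It was at 36.0, 37.3 and 42.6 CPM in Con and at 81.4, 202 and 75.1 CPM in DSS. It was at 48.7, 48.0 and 58.5 CPM in UA+DSS and at 65.7, 72.9 and 61.4 CPM in DSS+UA. The 4 groups did not overlap at all, and ran Con, UA+DSS, DSS+UA, DSS from lowest to highest. Nfkb2 rose by 1.63 ± 0.32 on the log2 scale in DSS against Con (edgeR adjusted p = 0.00586) and by 1.02 ± 0.14 without DSS 2 (adjusted p = 0.00226, 3.63e-05 to 0.0502 over alternatives).

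Nfkb2 fell by 1.21 ± 0.32 in UA+DSS against DSS (edgeR adjusted p = 0.0255, 0.00381 to 0.186 over alternatives) and by 0.60 ± 0.14 without DSS 2 (adjusted p = 0.0312). Leaving out any 1 UA+DSS library ended the call, at adjusted p of 0.0583 to 0.102. The value for DSS+UA against DSS was -0.84 ± 0.31 (adjusted p = 0.104), and it passed without DSS 3 (adjusted p = 0.0499). The neighbours UA+DSS and Con (0.42 ± 0.31, adjusted p = 0.585) and UA+DSS and DSS+UA (-0.37 ± 0.31, adjusted p = 0.433) did not pass this test. Its estimate of the spread is shared by all groups, DSS 2 included. Without DSS 2 the values were 0.42 ± 0.13 (edgeR unadjusted p = 0.00898, adjusted p = 0.243) and -0.38 ± 0.13 (unadjusted p = 0.0138, adjusted p = 0.0609). Exons of Nfkb2 overlap those of Psd (12.8 to 39.4 CPM) and of AC114539.1 (not analysed here) on the opposite strand, and whether strand was used in counting is not given in the sources used here, so their reads cannot be told apart.

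Relb, the partner of p52, showed little. It was at 53.0, 49.98 and 41.8 CPM in Con and at 50.8, 90.4 and 43.5 CPM in DSS. It was at 42.5, 76.3 and 57.3 CPM in UA+DSS and at 46.0, 68.2 and 48.0 CPM in DSS+UA. All groups overlapped, and replicate 2 was the highest of its group in all but Con. Its log2 fold change in DSS against Con was 0.35 ± 0.29 (edgeR adjusted p = 0.386), and -0.04 ± 0.25 without DSS 2. Relb passed in none of the 6 comparisons under any of the 22 alternatives.

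Within a library, the balance of these subunits shifted in DSS. The ratio of Nfkb2 to Nfkb1 per exon base was 1.11 to 1.38 in Con, 1.72, 2.86 and 1.70 in the 3 DSS libraries, 1.20 to 1.61 in UA+DSS and 1.68 to 2.17 in DSS+UA. Both DSS and DSS+UA lay above all Con and all UA+DSS libraries. The ratio of Relb to Nfkb2 ran the other way, at 1.16 to 1.74 in Con and 0.527 to 0.736 in DSS, with UA+DSS at 1.03 to 1.88 and DSS+UA at 0.826 to 1.10. The DSS libraries lay below all others in this ratio, DSS 2 included. The ratios are a description, with no test.

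Tnfaip2, first cloned as a TNF-induced gene of endothelium, rose in DSS and fell in UA+DSS. It was at 12.2, 8.99 and 16.6 CPM in Con and at 83.0, 438 and 63.2 CPM in DSS. It was at 32.5, 11.9 and 16.1 CPM in UA+DSS and at 22.6, 40.0 and 39.5 CPM in DSS+UA. DSS lay above every other group, UA+DSS overlapped Con, and DSS+UA lay above Con. Tnfaip2 rose by a log2 fold change of 3.95 ± 0.75 in DSS against Con (edgeR adjusted p = 0.00572) and passed under all 22 alternatives, at 2.53 ± 0.42 without DSS 2 (adjusted p = 0.00452, 2.68e-08 to 0.0356 over alternatives).

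Tnfaip2 fell by 3.27 ± 0.72 in UA+DSS against DSS (edgeR adjusted p = 0.0165, 1.1e-05 to 0.175 over alternatives) and by 1.86 ± 0.41 without DSS 2 (adjusted p = 0.0254). The call was lost without UA+DSS 2 (adjusted p = 0.0819) and without UA+DSS 3 (adjusted p = 0.0610). It came nearest of the 10 genes to passing in DSS+UA against DSS, at -2.52 ± 0.70 (adjusted p = 0.0526, 0.00169 to 0.167 over alternatives), and it passed without DSS 1 (adjusted p = 0.0446) and without DSS 3 (adjusted p = 0.0358). Without DSS 2 it was -1.09 ± 0.41 (adjusted p = 0.167). An antisense gene over its exons, Gm40578, had at most 12 counts in any library.

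Each UA group was also compared with Con. No gene of the 10 passed edgeR's test in UA+DSS against Con, and none had an unadjusted p under 0.05. Nor did limma-voom call one, or DESeq2 among the genes for which it gave an adjusted p. Of all tested genes 0.00566% were called. The 10 fold changes were all above 0, with a median of 0.33 against -0.01 over all tested genes. The UA+DSS libraries lay above the Con libraries for 4 genes, Tnfrsf1b, Nfkbia, Nfkb1 and Nfkb2 (9.62% of all tested genes did). Without DSS 2 none of the 10 passed, and 2 had an unadjusted p under 0.05 (the share of all tested genes is not given). These were Tnfrsf1b (0.94 ± 0.27, edgeR adjusted p = 0.217) and Nfkb2 (0.42 ± 0.13, adjusted p = 0.243). The colon position score was -5.70 to -4.16 in UA+DSS, below the lowest Con library (-3.03). Position and treatment thus cannot be told apart in this comparison.

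In DSS+UA against Con none of the 10 passed with all libraries, 3 had an unadjusted p under 0.05, DESeq2 called 1, and 18.1% of all tested genes were called. The DSS+UA libraries lay above the Con libraries for 7 genes (19.8% of all tested genes did). Without DSS 2, which belongs to neither group but enters the shared estimate of the spread, 7 genes rose (11.7% of all tested genes did). These were Tnf (3.003 ± 0.68, edgeR adjusted p = 0.0137), Tnfrsf1a (0.65 ± 0.15), Tnfrsf1b (1.77 ± 0.28), Tnfaip2 (1.45 ± 0.38), Tnfaip3 (0.74 ± 0.22), Nfkbia (0.83 ± 0.18) and Nfkb2 (0.80 ± 0.13). Their adjusted p ran from 0.00350 to 0.0369. With all libraries the fold change of Tnf was 2.99 ± 1.38 (adjusted p = 0.145, 0.00883 to 0.307 over alternatives). A fit of these 2 groups alone called 5. Without DSS 3, 1 gene rose, Tnfrsf1a (adjusted p = 0.0426). The share of all tested genes is not given for these last fits, for DESeq2 or for the unadjusted p.

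The direct comparison of the UA schedules, UA+DSS against DSS+UA, gave no call among the 10 genes, and none with an unadjusted p under 0.05. There was also no call by limma-voom, or by DESeq2 among the genes for which it gave an adjusted p. Of all tested genes 16.8% were called. The UA+DSS libraries lay below the DSS+UA libraries for 5 genes, Tnf, Tnfrsf1a, Tnfrsf1b, Nfkbia and Nfkb2 (22.5% of all tested genes did). Without DSS 2, Tnf fell by 2.05 ± 0.65 on the log2 scale (edgeR adjusted p = 0.0491, 0.0491 to 0.729 over alternatives), and 11.2% of all tested genes fell. In that fit 5 of the 10 had an unadjusted p under 0.05 (the share of all tested genes is not given). Tnfrsf1b, Nfkbia and Nfkb2 were just short of the threshold, at adjusted p of 0.0546, 0.0578 and 0.0609.

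In the groups given DSS, single libraries were the highest or lowest of their group in most of the 10 genes. Con held no such library. Con 1 was highest in 3 genes and lowest in 5 (43% and 38.3% of all tested genes). Con 3 was highest in 5 and lowest in 4 (29.2% and 30.1%). DSS+UA 2 was the highest of its group in 9 of the 10 genes (37.6% of all tested genes were highest there), the exception being Nfkb1. Its neutrophil sum was the lowest of its group, at 159 CPM, and its macrophage sum the highest, at 1739 CPM. UA+DSS 2 was the lowest of its group in 8 of the 10 genes (36.4% of all tested genes were lowest there), the exceptions being Nfkb1 and Relb. Its macrophage sum, 597 CPM, was above that of UA+DSS 3 (472 CPM). UA+DSS 1, with the highest Tnf and Nfkbiz of its group, had the lowest neutrophil sum (20.8 CPM) and the highest macrophage sum (992 CPM) of the group. The part of these markers in the levels of the 10 genes was not tested.

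**Figure D4:**
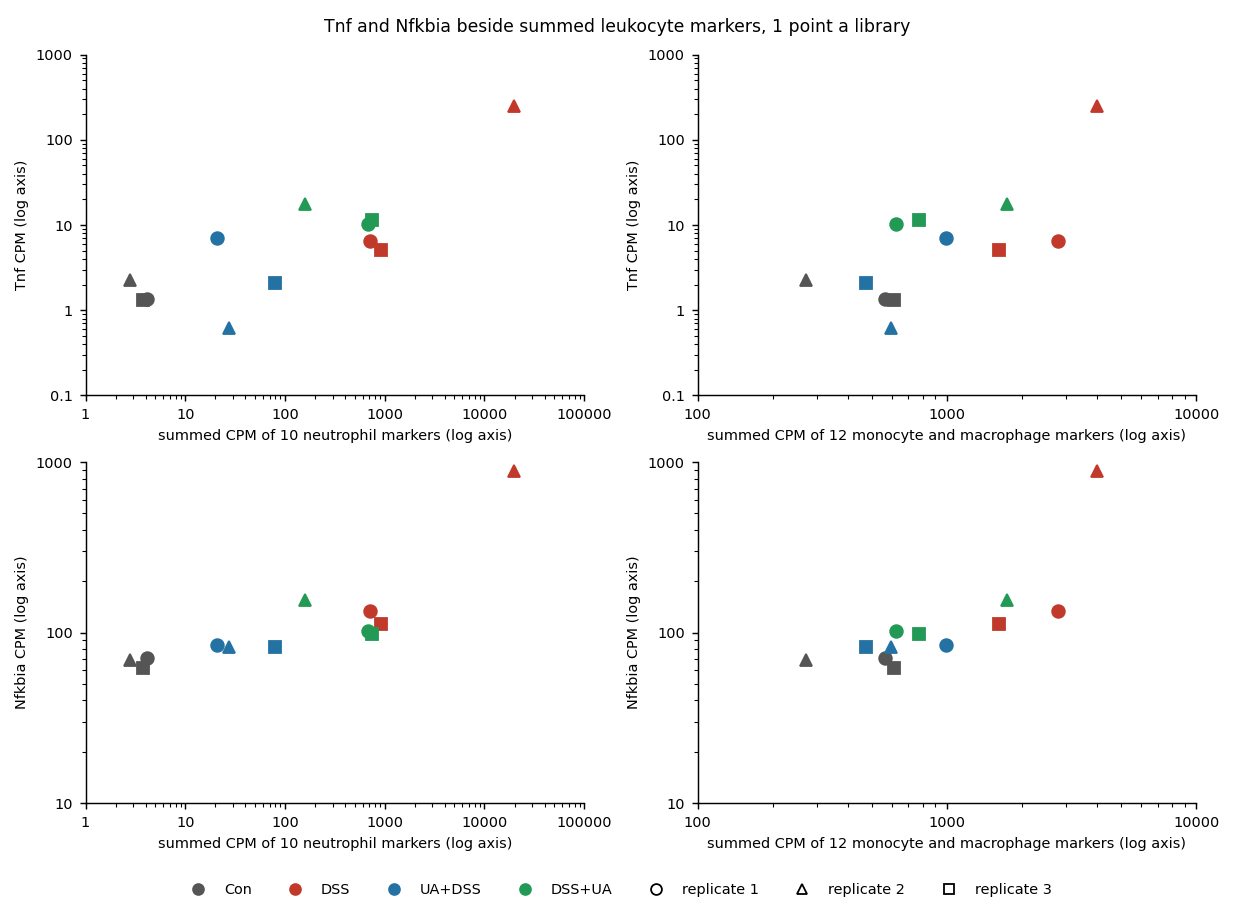
CPM of Tnf and Nfkbia against the summed CPM of 10 neutrophil and of 12 monocyte and macrophage markers, with log axes and 1 point for each of the 12 libraries, coloured by group. DSS 2 is the highest on all axes, whereas DSS+UA 2 has more Tnf (17.8 CPM) than DSS 1 and DSS 3 at a lower neutrophil sum (159 CPM).

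The rest of the pathway was followed in lists, whose counts stand against shares of all tested genes. In DSS against Con 13.9% of all tested genes rose and 12.6% fell (10.5% and 8.67% without DSS 2). Under the preventive schedule, UA+DSS against DSS, 10.5% fell (6.12% without DSS 2). The later schedule, DSS+UA against DSS, gave 2.54% that rose and 5% that fell (2.02% fell without DSS 2). Upstream of the receptors, 12 genes of TNF release and RNA decay were examined. Of these 5 rose and none fell in DSS against Con (13.9% of all tested genes rose), with a median log2 fold change of 0.998. Adam17, the protease that sheds TNF from the cell surface, rose by 0.77 ± 0.17 (edgeR adjusted p = 0.00851), and Zfp36, whose product tristetraprolin destroys Tnf mRNA, by 2.28 ± 0.64 (adjusted p = 0.0257). Timp3, an inhibitor of that protease, rose by 1.94 ± 0.51 (adjusted p = 0.0196). Zfp36l1, of the same family as Zfp36, rose by 1.53 ± 0.33, and Rhbdf2, a partner of the protease chosen after its values were seen, by 1.23. Adam17, Timp3, Zfp36 and Zfp36l1 also passed without DSS 2, Zfp36 at 0.80. Of the 12 genes 2 fell in UA+DSS against DSS, Adam17 (-0.58 ± 0.17) and Zfp36l1 (-1.34 ± 0.33), where 10.5% of all tested genes fell. Without DSS 2 the call of Adam17 was lost (-0.37, adjusted p = 0.0921), while Zfp36l1 passed at -0.82. A pair also fell in DSS+UA against DSS, Timp3 (-2.30 ± 0.52) and Zfp36l1 (-1.69 ± 0.33), and both passed without DSS 2 (-2.61 and -1.15).

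In the signalling complex at TNFR1, 2 of 26 genes rose in DSS against Con (13.9% of all tested genes did), Ripk3 (1.38 ± 0.23, edgeR adjusted p = 0.00331), a kinase of cell death, and Tnip3 (1.84 ± 0.58), a partner of A20, and Tab1 fell by 0.80 ± 0.22, with a median of 0.16 over the list. Of the 26 genes 1 fell in UA+DSS against DSS (10.5% of all tested genes did), Birc3 (-1.21 ± 0.37), which encodes the ubiquitin ligase cIAP2 and is itself an NF-κB target. Under the later schedule, DSS+UA against DSS, 2 of 26 rose (2.54% of all tested genes did), the adaptor Tradd (0.95 ± 0.22) and Tax1bp1 (0.83 ± 0.22), also a partner of A20. Without DSS 2, of these Ripk3 alone passed, Tnip3, Tab1, Birc3, Tradd and Tax1bp1 having adjusted p of 0.101, 0.0683, 0.147, 0.0952 and 0.131.

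Of 10 IκB kinase and IκB genes 3 rose and 2 fell in DSS against Con (13.9% and 12.6% of all tested genes did). Those that rose were inhibitors or co-regulators: Nfkbie (IκBε, 2.62 ± 0.54, edgeR adjusted p = 0.00709), Bcl3 (1.92 ± 0.39) and Nfkbid (3.10 ± 0.89). Ikbkg, the regulatory subunit of the kinase, fell by 0.39 ± 0.12, and Nfkbil1 fell by 0.81 (this gene was chosen after its values were seen). The kinase Ikbkb itself was at 0.40 ± 0.19 (adjusted p = 0.138). In UA+DSS against DSS the 3 genes Nfkbie, Bcl3 and Nfkbid fell, by 2.41, 1.53 and 3.50 (10.5% of all tested genes fell), and in DSS+UA against DSS none of the 10 passed. Without DSS 2, Nfkbie and Bcl3 still rose in DSS (1.64 and 1.38) while Nfkbid (0.81), Ikbkg (adjusted p = 0.0551) and Nfkbil1 (adjusted p = 0.0756) did not pass. In UA+DSS against DSS only Nfkbie passed without DSS 2 (-1.43, adjusted p = 0.0296), with Bcl3 at -0.999 (adjusted p = 0.0622) and Nfkbid at -1.22 (adjusted p = 0.0590).

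The other Rel subunits rose in DSS against Con, Rela by 0.82 ± 0.19 (edgeR adjusted p = 0.0117) and Rel by 2.19 ± 0.38 (adjusted p = 0.00372), and did so also without DSS 2. Both fell in UA+DSS against DSS, Rela by 0.74 and Rel by 1.63, Rel also without DSS 2, where Rela was at -0.46 (adjusted p = 0.0560). Neither passed in DSS+UA against DSS. In the noncanonical arm, where receptors such as LTβR and CD40 act through the kinase NIK, 7 of 14 genes rose and 1 fell in DSS against Con, where 13.9% and 12.6% of all tested genes did. The kinase gene Map3k14 rose by 1.03 ± 0.29, the ligands Tnfsf14 (LIGHT) and Tnfsf11 (RANKL) by 4.00 ± 0.79 and 3.95 ± 0.68, and the receptor of RANKL, Tnfrsf11a, fell by 0.96 ± 0.24. Of the 14 genes 6 fell in UA+DSS against DSS (10.5% of all tested genes did), and in DSS+UA against DSS 1 did (5% of all tested genes did), Tnfsf11 (-2.49 ± 0.63). Without DSS 2, 4 rose and 1 fell in DSS against Con, Map3k14 no longer passing (0.73, adjusted p = 0.0920), and 2 fell in UA+DSS against DSS. None of the 14 passed in DSS+UA against DSS without it, Tnfsf11 being at -1.93 (adjusted p = 0.121).

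Of 24 classical NF-κB targets 23 were tested, and 19 rose in DSS against Con while none fell (13.9% and 12.6% of all tested genes did). The median log2 fold change was 3.31. The adhesion molecules Icam1 (3.25 ± 0.47, edgeR adjusted p = 0.00243) and Vcam1 (3.31 ± 0.33, adjusted p = 0.000833), the chemokine Ccl2 (5.31 ± 0.62) and the prostaglandin synthase Ptgs2 (4.21 ± 0.63) were among them, and Vcam1 was as high without DSS 2 (3.57). In UA+DSS against DSS 18 of the 23 fell (10.5% of all tested genes did), with a median of -2.41, and in DSS+UA against DSS 6 fell (5% of all tested genes did), with a median of -1.74. Without DSS 2 these counts were 17, 15 and 2. Icam1, Vcam1 and Ptgs2 fell in DSS+UA against DSS by 1.74, 1.80 and 2.98, and of these Vcam1 alone passed without DSS 2 (-2.05), with Icam1 at -0.93 and Ptgs2 at -2.55.

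Markers of endothelium and fibroblasts, cells that also make Icam1 and Vcam1, were measured in the same libraries. The summed level of 6 endothelium markers was 152 to 204 CPM in Con, 251 to 378 in DSS, 126 to 153 in UA+DSS and 92.9 to 103 in DSS+UA. Of these 6 markers 3 rose in DSS against Con (13.9% of all tested genes did). In UA+DSS against DSS 5 fell (10.5% of all tested genes did), and in DSS+UA against DSS 6 fell (5% did). In DSS+UA against Con 4 of the 6 fell. Of all tested genes 18.1% were called there in either direction, and the share that fell is not given. Icam1 (1.51 ± 0.45, edgeR adjusted p = 0.0411) and Vcam1 (1.51 ± 0.31, adjusted p = 0.0111) rose in that comparison. The summed level of 7 fibroblast markers was 1221 to 1977 CPM in Con, 3401 to 7096 in DSS, 681 to 1734 in UA+DSS and 995 to 2467 in DSS+UA. Of these 7 markers 5 rose in DSS against Con, 4 fell in UA+DSS against DSS and 2 fell in DSS+UA against DSS. The shares of all tested genes were 13.9%, 10.5% and 5%. No marker of either list was at 0 in any library. Their part in the levels of the 10 genes or of the targets was not tested.

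**Figure D5:**
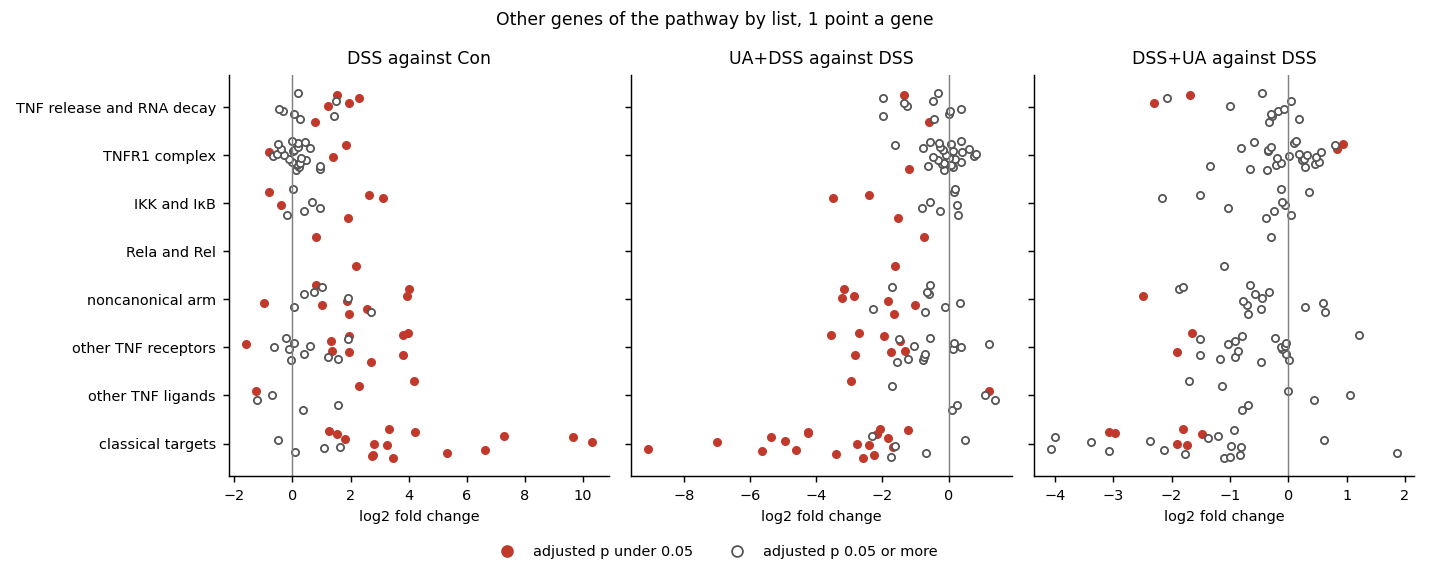
Log2 fold change of each tested gene of 8 lists of the pathway in the 3 comparisons with DSS, filled where the adjusted p was under 0.05. 4 classical targets with 3 or fewer counts in all of Con are left out of the first panel, and of the classical targets 19 of 23 rose there.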

How the data were processed

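Colon RNA was sequenced from 12 TruSeq libraries, 3 a group, with groups and replicate numbers taken from the sample titles. The authors deposited raw counts of reads for each Ensembl gene, after alignment to GRCm38. The processing notes name FastQC, HISAT2 and Cuffdiff, while versions, annotation release, strand use and the treatment of multi-mapped reads were not given in the sources used here. The labels name Trizol for the RNA and the methods the RNeasy kit. Of 54532 genes, 37 had no name in the GRCm38 annotation used here (0.00364% of the counts).

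edgeR 4.0.16 (R 4.3.3) kept 17658 genes by filterByExpr (99.8% of the counts), scaled by TMM (factors 0.871 to 1.09), with 1 robust quasi-likelihood fit over all 12 libraries (biological coefficient of variation 0.352). The fit was tested on simulated data. The SE of a log2 fold change was taken from its F statistic. CPM are per 1000 bases of merged exon where genes are compared. Tables and ratios were made with Python 3.11.15, pandas 2.3.3 and numpy 2.4.6, and likeness is the Pearson correlation of log2 CPM with a prior count of 2 (for each of Tnf and Nfkbia the 5 nearest genes were taken, of which 1 is not reported here). No 2 libraries agreed within sampling noise.

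The 10 genes and the lists of the pathway and of cell type markers were chosen with earlier results of these data known. From each pathway list the text names at most 4 genes with the smallest p in DSS against Con and 2 in each UA comparison with DSS, and Rela, Rel, Ikbkb, Map3k14, Bcl3 and Adam17. Edar, Tnfsf4, Tnfsf18, Cd70 and Csf2 did not pass the filter. The 22 alternatives were DESeq2 1.42.0, limma-voom (limma 3.58.1), 3 other scalings, 2 other filters, a fit restricted to the pair of groups, a block for replicate number, a colon position score built after an earlier look at these data, and leaving out each library. Histology, serum cytokines, microbiota and immunoblots were not analysed here.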

Additional observations from a re-analysis of the deposited data

Results flagged for a closer look

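None of the 10 genes differed between the UA schedules by the test of UA+DSS against DSS+UA with all libraries, and 11 of the 113 other tested genes of the pathway did (edgeR adjusted p under 0.05), a share of 9.73% against 16.8% of all tested genes. Tnfrsf8 (CD30, a receptor of activated lymphocytes) lay at 1.28, 0.312 and 2.45 CPM in UA+DSS. DSS+UA held 37.0, 43.9 and 31.3 CPM, a log2 difference of -4.77 ± 0.68. Its level in DSS, 25.5, 10.6 and 12.2 CPM, lay below that of DSS+UA in each library.

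Tnip3, an A20-binding inhibitor of NF-κB, differed by -2.44 ± 0.59, with UA+DSS at 29.6, 5.998 and 22.4 CPM against 86.2, 132 and 96.6 CPM under the later schedule. The neutrophil chemokine Cxcl1 differed by -2.49 ± 0.76 and Tnfrsf12a, the receptor of TWEAK, by -1.06 ± 0.31. Within the complex, Tradd differed by -0.87 ± 0.22, Ripk3 by -0.95 ± 0.23 and Otulin, a deubiquitinase, by -0.55 ± 0.17. Tnfsf15 (TL1A) went the other way, at 1.22 ± 0.33. The remaining 3, chosen after their values were seen, were Fadd, the adaptor of death receptors (-0.65 ± 0.18), the RNA-binding Elavl1 (-0.63 ± 0.17) and the receptor Tnfrsf19 (2.25 ± 0.47). All 11 kept an adjusted p under 0.05 without DSS 2, where 21 of 114 tested genes of the lists passed. The colon position score was -5.70 to -4.16 in UA+DSS and 4.11 to 5.06 in DSS+UA, so position and schedule cannot be told apart here. Groups of 3 libraries were not tested for outlying samples.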

How the results depend on the processing

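With 3 libraries a group, the counts of called genes among the 10 moved with the settings. The share of all tested genes called under each of these settings is not given, so the counts cannot be set against it. In DSS against Con (8 called) 5 were called without the low-count filter, 4 by DESeq2 and 3 in the fit of these groups alone. In UA+DSS against DSS (6 called) 3 were called without that filter, 3 with the replicate block, and 0 in the fit of these groups alone or with the position score. For DSS+UA against DSS (0 called) 1 was called with library size as the only scaling, 2 with at least 10 counts in every sample and 3 by DESeq2. For DSS+UA against Con (0 called) DESeq2 called 1 and the fit of these groups alone 5, and in UA+DSS against DSS+UA that fit called 1. Leaving out each library gave 5 to 8 in DSS against Con, 0 to 8 in UA+DSS against DSS, 0 to 3 in DSS+UA against DSS, 0 in UA+DSS against Con, 0 to 7 in DSS+UA against Con and 0 to 1 between the UA groups. DESeq2 gave no adjusted p for Tnf, Tnfrsf1b, Tnfaip3, Nfkbia and Nfkbiz, which is part of its lower count. For the other moves the cause was not tested. Replicate numbers showed no pairing of the libraries over the comparisons together. Correlations of same-numbered deviations ran from -0.216 to 0.187, and those of other pairs from -0.289 to 0.240. In UA+DSS against DSS, however, same-numbered values were 0.041 to 0.174, against -0.106 to 0.054 for other pairs. With the block 6 genes were called in DSS against Con. Library size as the only scaling moved the median of all genes by -0.13 for DSS+UA against DSS, a smaller shift elsewhere, and no scaling turned a direction among the 10 genes.

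Of the log2 fold changes of the 10 genes under the alternatives, 1166 kept direction and side of the threshold, 33 came to pass, 71 no longer passed and 20 changed sign, none of the last passing. On leaving out each library in turn, the value ran from -0.037 (without DSS 2) to 0.55 for Relb in DSS against Con. For UA+DSS against DSS it ran from -2.55 to 0.25 (without DSS 2) for Nfkbiz, and from -0.30 to 0.32 for Relb, above 0 without DSS 2 and without UA+DSS 1 (0.12). For DSS+UA against DSS the values above 0 were those without DSS 2, with ranges of -3.27 to 1.19 for Tnf, -2.43 to 0.095 for Tnfaip3, -2.13 to 0.46 for Nfkbiz and -0.43 to 0.21 for Relb. For UA+DSS against Con the values below 0 were those without UA+DSS 1, with ranges of -0.26 to 1.45 for Tnf and -0.42 to 0.68 for Nfkbiz. Relb in DSS+UA against Con ran from -0.033 (without DSS+UA 2) to 0.28. Between the UA groups Nfkbiz ran from -0.98 to 0.30, above 0 without UA+DSS 2 (0.11), UA+DSS 3 (0.033) or DSS+UA 2 (0.30), and Relb from -0.11 (without UA+DSS 2) to 0.30, also below 0 without DSS+UA 1 (-0.0026). With the replicate block Nfkbiz changed sign between the UA groups (0.020). With the position score the sign changed for Relb in UA+DSS against DSS (0.0068), Tnfaip3 in UA+DSS against Con (-0.12) and Nfkb1 between the UA groups (-0.33).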

Other observations

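Other members of the TNF family were measured in the same libraries. Of 20 other receptors 19 were tested, and in DSS against Con 8 rose and 1 fell (13.9% and 12.6% of all tested genes did), with a median log2 fold change of 1.34. Tnfrsf9 (4-1BB, a costimulatory receptor) rose by 3.97 ± 0.49, Tnfrsf8 by 3.82 ± 0.66, Relt by 3.79 ± 0.63, Cd27 by 2.69 ± 0.71 and Tnfrsf11b (osteoprotegerin, the decoy receptor of RANKL) by 1.96 ± 0.52. Of the 19 tested 7 fell in UA+DSS against DSS (10.5% of all tested genes did), and in DSS+UA against DSS 2 did (5% of all tested genes did), Tnfrsf11b (-1.90 ± 0.52) and Tnfrsf9 (-1.65 ± 0.43). Without DSS 2, 3 of 20 rose in DSS against Con, and Tnfrsf11b (1.24) and Cd27 (1.93) no longer passed. Without it 3 of 20 fell in UA+DSS against DSS and none in DSS+UA against DSS, Tnfrsf11b being at -1.17 (edgeR adjusted p = 0.169) and Tnfrsf9 at -1.14 (adjusted p = 0.149). Of 10 other ligands 7 were tested, and Tnfsf9 (the ligand of 4-1BB) and Tnfsf8 rose by 4.18 ± 0.90 and 2.31 ± 0.67 while Tnfsf15 fell by 1.26 ± 0.33 in DSS against Con. Without DSS 2, Tnfsf9 passed at 2.47, while Tnfsf8 (1.76, edgeR adjusted p = 0.0915) and Tnfsf15 (-1.14, adjusted p = 0.0582) did not.

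The genes whose log2 CPM ran most like that of Tnf over the 12 libraries, among 13724 genes, were Cdc42se1 (Pearson r = 0.973), Ada, Myd88, Arf2 and Lyn (r = 0.952), and over the 11 libraries without DSS 2 these 5 had r of 0.883 to 0.944. For Nfkbia they were Flot1 (r = 0.987), Mapkapk2, Rhog and Pim1 (r = 0.978), at 0.841 to 0.918 without DSS 2. These are descriptions over libraries that share the group structure and DSS 2, with no test.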
